A study of Danio rerio with 4 samples.

Results

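The proteasome is the protease that degrades ubiquitin-tagged proteins in the cytosol and nucleus. Its 20S core is a barrel of alpha and beta rings whose beta subunits cut proteins, and its 19S regulatory particle binds ubiquitin, unfolds the substrate with a ring of ATPases and feeds it into the core. Immunoproteasome subunits replace the catalytic beta subunits in immune cells and after interferon, and alter which peptides reach class I antigen presentation. Dividing cells also use the proteasome to remove cyclins and other regulators.

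Proteasome genes were taken as the rows of the deposited table whose symbol begins with psma to psmg followed by a digit, 56 of 30838 rows. By role these were 9 core alpha, 7 core beta, 2 immunoproteasome, 4 other beta, 7 ATPase, 13 non-ATPase, 5 activator, 7 assembly chaperone and 1 inhibitor row. The remaining row, psmc3ip, met the symbol rule but encodes a meiotic recombination factor, not a subunit. No row carried the symbol psmb13a, the third immunoproteasome gene of the rule. The RefSeq table of GRCz12tu lists psmb10 as an older name of psmb13a, so the psmb10 row could not be tied to one of these genes and is kept among the other beta rows.

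Expression was measured in AB strain zebrafish larvae at 4 days post fertilization. Hematopoietic stem and progenitor cells (HSPCs) were gated by low fluorescence of the transgenic reporter cd41:eGFP and sorted from 2 sibling and 2 Smu07 mutant samples, and about 500 cells entered each amplified library. The phosphate transporter gene slc20a1b appears in the series title, but the labels give no lesion, do not say whether siblings were wild type or carriers, and do not say whether samples came from separate clutches. Values are TPM, a transcript abundance per gene length on a common library total. The p-values therefore reflect only how these 4 samples spread, which may be technical.

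Whole reads recovered from the TPM values came to 25102929 and 26598635 for siblings, against 28274779 and 29948918 for mutants. Genes above 0 numbered 19528 and 19811 in sibling libraries against 23881 and 23978 in mutant libraries, and the part of this in the proteasome differences was not tested. The slc20a1b transcript stood at 39.3 and 42.4 TPM in sibling libraries against 49.3 and 53.8 TPM in mutant libraries, which cannot check the genotype labels without a known lesion. The transcript of the gate, itga2b, stood at 50.8 and 66.9 TPM in sibling libraries against 23.5 and 19.3 TPM in mutant libraries. The progenitor gene myb lay at 8.81 to 14.3 TPM in the 4 libraries, and runx1 rose from 8.10 and 7.10 TPM in sibling libraries to 15.7 and 14.6 TPM in mutant libraries (limma adjusted p = 0.0129). Marker lists of the other cell types the gate could hold also differed. Summed thrombocyte markers, 11 of 12 with a row, ranged from 1842 to 2036 TPM in the siblings and 837 to 998 TPM in the mutants. The gene blf alone held 1637 and 1414 TPM in sibling libraries against 555 and 755 TPM in mutant libraries. Among 11 tested thrombocyte genes 6 fell, 4 did not pass and 1 rose. The rise was that of thbs1b, from 38.0 and 35.6 TPM in sibling libraries to 77.8 and 63.2 TPM in mutant libraries. Summed erythroid markers, 12 of 12, ranged from 1164 to 1739 and 564 to 629 TPM, with alas2 and gata1a at or near 0 in all libraries. Summed macrophage markers, 12 of 12, ranged from 406 to 533 and 994 to 1036 TPM, with c1qa and c1qc at 0 and mpeg1.1 and c1qb at or near 0. Summed neutrophil markers, 10 of 10, ranged from 558 to 806 and 1124 to 1356 TPM, with cebp1 at 0. Of 8 tested neutrophil genes 3 rose and 4 did not pass. The remaining 1, srgn, fell from 244 and 261 TPM in sibling libraries to 141 and 175 TPM in mutant libraries. Summed keratinocyte markers, 10 of 10, ranged from 34.9 to 44.1 and 177 to 273 TPM, with epcam at 0 and krt5 near 0. Summed lymphoid markers, 12 of 12, ranged from 711 to 867 and 877 to 908 TPM, with lck at 0 and rag1 at or near 0. Most of that sum was ccr9a, which did not pass, while 4 of 8 tested lymphoid genes fell (ikzf1, il7r, zap70 and cd79a) and the median log2 difference was -0.34. Summed endothelial markers, 10 of 10, ranged from 195 to 222 and 147 to 159 TPM, with lyve1b at 0 and cdh5 and kdrl at or near 0. Endothelial genes went both ways, with aqp1a.1 and sele lower, pecam1 and stab1 higher and a median log2 difference of 0.030 over 5 tested. Summed muscle markers, 8 of 8, ranged from 4.97 to 6.82 and 8.27 to 8.69 TPM, with ckma at 0. The part of these markers in the proteasome results was not tested. In sorted bulk samples, fewer cells of a type and less RNA per cell cannot be told apart.

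Proteasome transcripts were abundant and mostly lower in the mutant libraries by a small amount. All 56 rows together took 10363 and 9945 TPM in sibling libraries against 8409 and 8196 TPM in mutant libraries, or 1.04 and 0.995% against 0.841 and 0.82% of the total. Of the rows, 49 had a mean of at least 1 TPM and were tested with limma on log2(TPM + 1) in a fit over 12073 genes. At a Benjamini-Hochberg adjusted p under 0.05, 16 members fell, 1 rose and 32 did not pass. Over all genes tested 18.6% were called lower and 9.91% higher. The background depends on level, since 33.4% of the 3551 tested genes averaging 20 TPM or more were called lower. Of the 42 members at that level 38.1% were, which is near that background. In a fit limited to genes of that level the shares were higher, at 57.1% of the 42 members, or 24, and 40.5% of the 3551 genes.

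The median log2 difference of the 49 tested members was -0.29, beside -0.14 over all genes tested. Among genes of at least 20 TPM the medians were -0.30 for the 42 members and -0.27 for all 3551 genes, so the typical shift of the members was close to that of other abundant genes. The differences were narrowly spread, with an interquartile range of 0.22 for those 42 members and 0.54 for the 3551 genes. Both mutant libraries lay below both sibling libraries in 37 of the 49 tested members, or 75.5%, beside 44% of all genes tested. At 20 TPM or more this held for 35 of the 42 members, or 83.3%, beside 61.3% of genes at that level. Without mutant replicate 1 and without mutant replicate 2 no member passed in limma, where 11 and 4 genes of the whole table did. The differences stayed close in size, with member medians of -0.33 and -0.25, and 21 and 18 of 49 members had an unadjusted p under 0.05. Under median-of-ratios scaling 8 members were called lower and 1 higher, with a median of -0.19, beside 1656 genes lower and 1397 higher overall. Under quantile normalization 4 members were called lower and 2 higher, with a median of -0.11, beside 1316 genes lower and 1324 higher, where TPM as deposited gave 2247 and 1196.

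**Figure D1:**
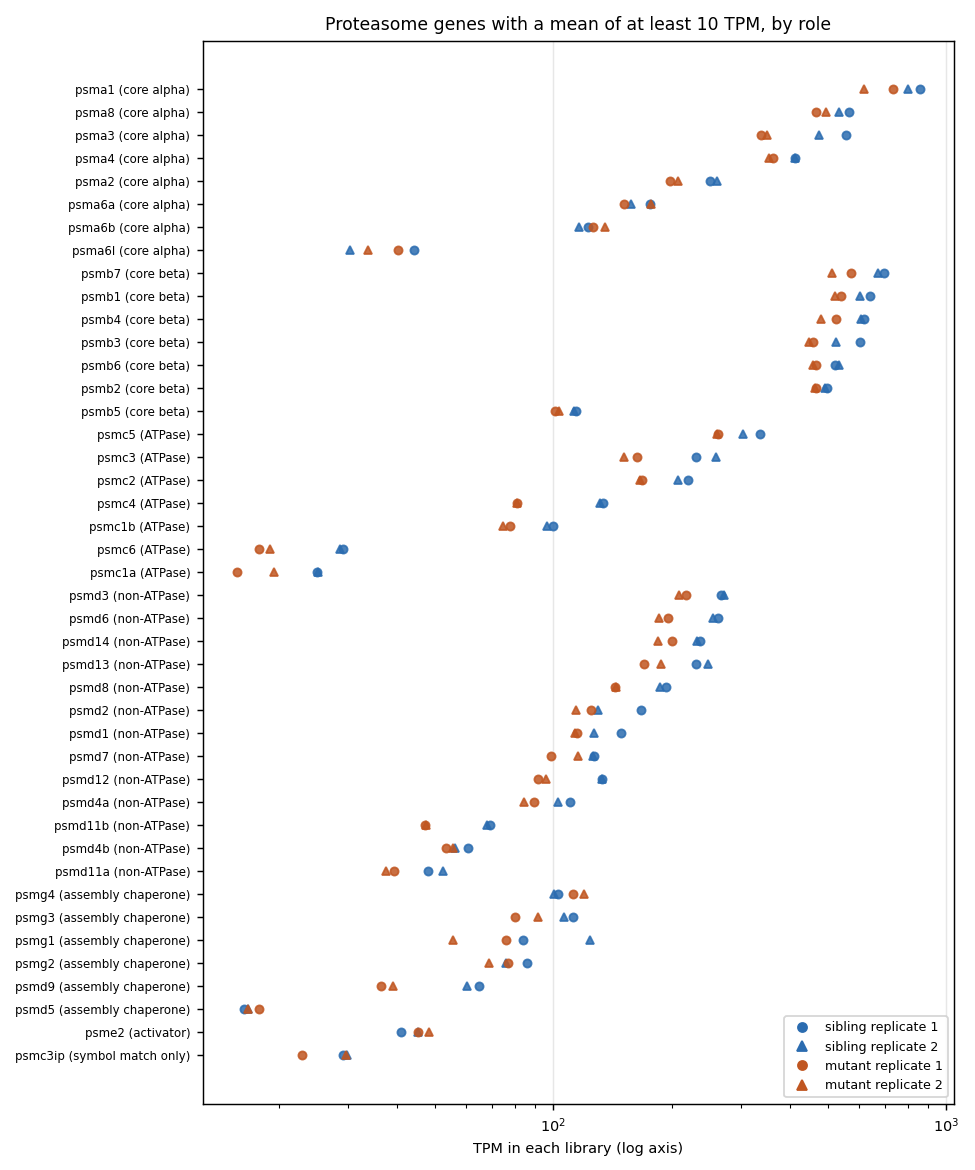
TPM of the proteasome rows with a mean of at least 10 TPM, 1 point per library on a log axis, grouped by role and ordered by mean level. Most rows show both mutant points to the left of both sibling points, while psma6b and psmg4 show the opposite order.

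The 19S ATPases, which unfold substrates, held the highest share of calls among the large groups. Of 7 ATPase rows 5 fell, and all 7 had both mutant libraries below both siblings, with a median log2 difference of -0.50. Among all genes of at least 20 TPM 33.4% fell and 61.3% had both mutant libraries below both siblings. The median of those genes was -0.27. The gene psmc4 stood at 134 and 131 TPM in sibling libraries against 80.7 and 81.0 TPM in mutant libraries, a log2 difference of -0.71 (SE 0.093, limma adjusted p = 0.0077). Its 2 libraries in each group nearly coincided and the groups lay far apart. Another ring subunit is encoded by psmc3, which stood at 231 and 259 TPM in sibling libraries against 163 and 151 TPM in mutant libraries. Its log2 difference was -0.63 (SE 0.10, limma adjusted p = 0.0109). The groups did not overlap, although the sibling values differed more than those of psmc4. For psmc6, the values were 29.2 and 28.7 TPM in sibling libraries against 17.8 and 18.98 TPM in mutant libraries, a log2 difference of -0.63 (SE 0.13, limma adjusted p = 0.0184). The replicates of each group lay close together and the groups did not overlap, but the call ended under quantile normalization.

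Smaller falls were found for psmc2 and psmc1b. The gene psmc2 stood at 220 and 207 TPM in sibling libraries against 168 and 166 TPM in mutant libraries, a log2 difference of -0.35 (SE 0.088, limma adjusted p = 0.032). The gene psmc1b stood at 100.1 and 96.1 TPM in sibling libraries against 77.8 and 74.6 TPM in mutant libraries, a log2 difference of -0.36 (SE 0.098, limma adjusted p = 0.0411). Both calls ended without sibling replicate 1 and under median-of-ratios scaling. Its copy psmc1a, the least abundant ATPase row by mean level, stood at 25.05 and 25.2 TPM in sibling libraries against 15.7 and 19.5 TPM in mutant libraries (log2 difference -0.50, limma adjusted p = 0.0544). The most abundant ATPase row, psmc5, stood at 336 and 304 TPM in sibling libraries against 262 and 261 TPM in mutant libraries (log2 difference -0.29, limma adjusted p = 0.0573). Neither passed the test, although their groups did not overlap. Both passed without sibling replicate 2, and psmc1a also without sibling replicate 1. Within a library the ATPase levels spanned from 12.1 to 16.7 times, from psmc1a or psmc6 up to psmc5.

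The 13 non-ATPase rows encode further base and lid subunits of the 19S particle, including ubiquitin receptors and the deubiquitinase. They are not all of them, since adrm1 and shfm1 (sem1) also encode 19S subunits but lie outside the symbol rule. Neither of those genes passed, and their values are given with the partners below. Of these 6 fell, 7 did not pass, and all 13 had both mutant libraries below both siblings in TPM. At 20 TPM or more, 33.4% of all genes fell and 61.3% had both mutant libraries below both siblings. The median log2 difference of the 13 rows was -0.34, although psmd4b turned to 0.00082 under median-of-ratios scaling and 0.15 under quantile normalization. The called genes psmd12, psmd11b, psmd6, psmd13, psmd8 and psmd3 encode lid subunits, as do psmd7, psmd11a and psmd14, which did not pass. The strongest differences among them were those of psmd11b and psmd12. The gene psmd11b stood at 69.2 and 67.7 TPM in sibling libraries against 47.1 and 47.5 TPM in mutant libraries, a log2 difference of -0.52 (SE 0.10, limma adjusted p = 0.0177). The gene psmd12 stood at 133.0 and 132.7 TPM in sibling libraries against 91.3 and 95.9 TPM in mutant libraries, a log2 difference of -0.50 (SE 0.094, limma adjusted p = 0.0153). In both genes the replicates lay close together and the groups did not overlap. Both calls ended under quantile normalization, at -0.28 for each, and with no trend.

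The other 4 called lid genes differed by -0.44 to -0.34 on the log2 scale. The gene psmd6 stood at 263 and 255 TPM in sibling libraries against 196 and 186 TPM in mutant libraries (limma adjusted p = 0.0174). The gene psmd13 stood at 231 and 248 TPM in sibling libraries against 170.4 and 188 TPM in mutant libraries (limma adjusted p = 0.0274). The groups of both genes were separated by more than the replicate gaps. The gene psmd8 stood at 193 and 187 TPM in sibling libraries against 144.0 and 144.3 TPM in mutant libraries (limma adjusted p = 0.0225). The gene psmd3, the most abundant non-ATPase row, stood at 267 and 272 TPM in sibling libraries against 218 and 208 TPM in mutant libraries (limma adjusted p = 0.0317). The call of psmd6 ended under quantile normalization, those of psmd13, psmd8 and psmd3 under median-of-ratios scaling, and that of psmd3 also without sibling replicate 2. Among rows that did not pass were psmd14, the deubiquitinase gene of the lid, psmd1 and psmd2, scaffold genes of the base, and psmd4a and psmd4b, copies of a ubiquitin receptor gene. Their log2 differences ranged from -0.30 to -0.098, and psmd1 and psmd2 passed without sibling replicate 2. The least abundant row, psmd11a, stood at 48.0 and 52.3 TPM in sibling libraries against 39.3 and 37.4 TPM in mutant libraries, without passing (limma adjusted p = 0.0552), but passed without sibling replicate 1.

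Median differences were smaller in the 20S core, without a test between roles. Of 8 tested core alpha rows 2 fell and of 7 core beta rows 2 fell, with median log2 differences of -0.20 and -0.22. Among all genes of at least 20 TPM 33.4% fell, with a median of -0.27, so the core did not exceed that background in calls or median. Both mutant libraries lay below both siblings in 5 of the 8 core alpha rows, beside 61.3% of all genes of at least 20 TPM. Among the alpha ring genes psma3 stood at 557 and 474 TPM in sibling libraries against 339 and 349 TPM in mutant libraries, a log2 difference of -0.58 (SE 0.10, limma adjusted p = 0.0132). The mutant values were alike and both lay below the lower sibling value, but the call was lost when low genes were kept and with no trend. The gene psma2, whose symbol RefSeq now gives as psma2a beside a copy psma2b, stood at 250.4 and 261 TPM in sibling libraries against 198 and 207 TPM in mutant libraries, a log2 difference of -0.33 (SE 0.086, limma adjusted p = 0.0351). The groups did not overlap, but the call ended without sibling replicate 2 and under median-of-ratios scaling.

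The most abundant row of all, psma1, stood at 857 and 800 TPM in sibling libraries against 733 and 618 TPM in mutant libraries (log2 difference -0.30, limma adjusted p = 0.0782) and did not pass. The 3 psma6 copies, which fill 1 position of the ring, did not pass. The copy psma6a stood at 177 and 158 TPM in sibling libraries against 151 and 177 TPM in mutant libraries, psma6b at 123 and 116 TPM against 126 and 135 TPM, and psma6l at 44.3 and 30.3 TPM against 40.1 and 33.7 TPM. The groups overlapped for psma6a and psma6l, and both psma6b values were higher in the mutants without passing (limma adjusted p = 0.345). The summed level of the 3 copies was 343 and 304 TPM in sibling libraries against 318 and 346 TPM in mutant libraries, also overlapping. Whether the copies share reads in the authors' counting is not given in the sources used here.

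All 7 core beta genes had both mutant libraries below both siblings in TPM, beside 61.3% of all genes of at least 20 TPM. However, psmb5 and psmb2 turned to 0.084 and 0.075 under quantile normalization and psmb2 to 0.012 under median-of-ratios scaling, without passing. The gene psmb7, which carries the trypsin-like site and is the most abundant beta row, stood at 696 and 671 TPM in sibling libraries against 574 and 511 TPM in mutant libraries, a log2 difference of -0.33 (SE 0.088, limma adjusted p = 0.0374). The gene psmb4 stood at 617 and 606 TPM in sibling libraries against 524 and 481 TPM in mutant libraries, a log2 difference of -0.28 (SE 0.082, limma adjusted p = 0.0475). Both falls were larger than the gap between replicates, and both calls ended without sibling replicate 1 and under median-of-ratios scaling, that of psmb4 also without sibling replicate 2. Of the other catalytic genes, psmb6, which carries the caspase-like site, stood at 521 and 535 TPM in sibling libraries against 466 and 458 TPM in mutant libraries (log2 difference -0.19, limma adjusted p = 0.105). The gene of the chymotrypsin-like subunit, psmb5, stood at 115 and 113 TPM in sibling libraries against 101 and 104 TPM in mutant libraries (log2 difference -0.15, limma adjusted p = 0.254). Neither passed.

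The level of psmb5 was 5.04 to 6.08 times below that of the most abundant beta gene in each library, although the subunits enter the ring in equal number. Gene lengths recovered from the table bear on this comparison of levels per length. The recovered length for psmb5 was 2625 bases, against 672 to 1068 bases for the other 6 beta genes. Its recovered reads, 5335 to 6026 per library, lay below those of psmb6, at 6215 to 6817. They lay further below those of psmb7, at 12081 to 13322, and of psmb1, at 9801 to 10131, the most abundant beta genes by library. The part of length in the low level of psmb5 was not tested. The alpha gene psma5 and the assembly gene psmd10 were listed at 0 in all 4 libraries. Since every cell uses a psma5 subunit, that value can be a failed estimate, and no fold is given.

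**Figure D2:**
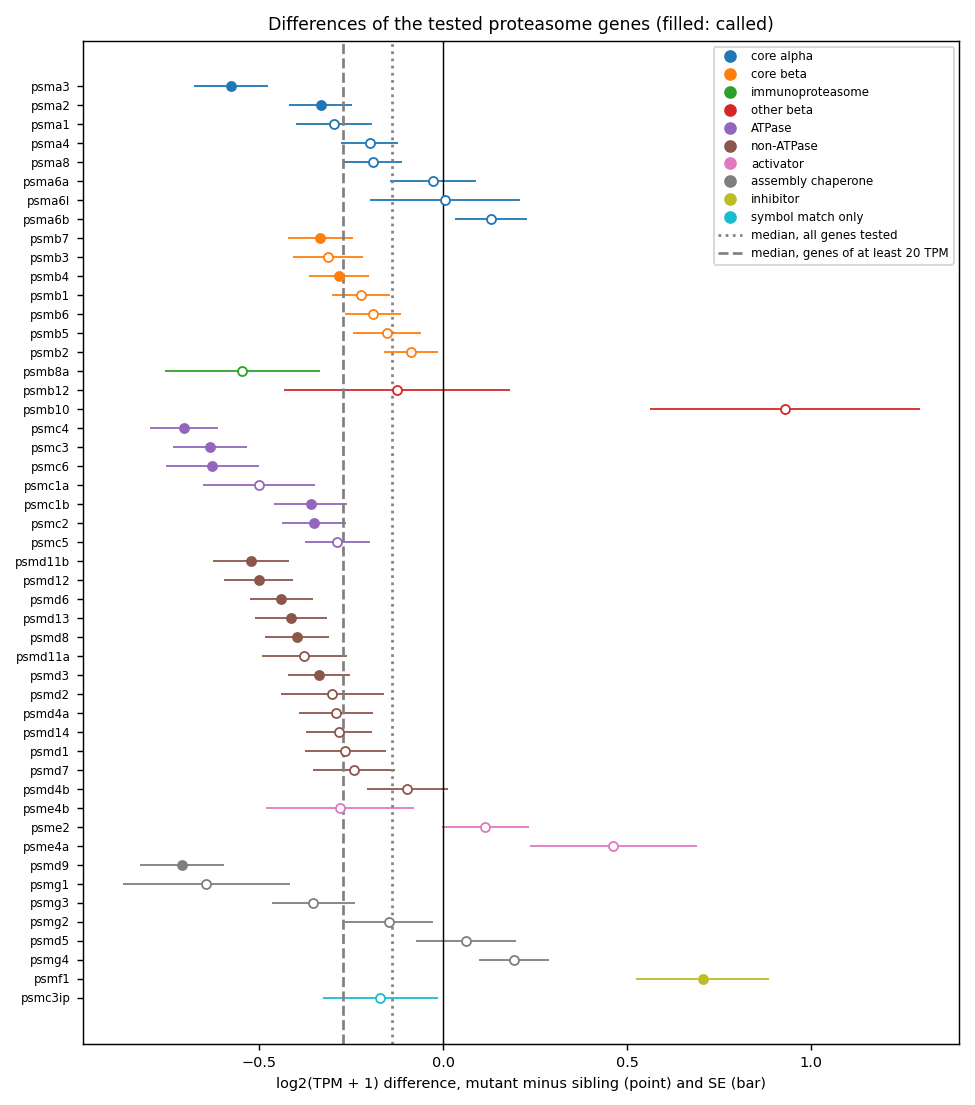
Log2(TPM + 1) difference, mutant minus sibling, for the 49 tested rows by role, with the model's SE as bars and filled points for calls. The ATPase and non-ATPase points all lie below 0 in TPM (psmd4b lies above 0 under both other scalings), the psma6 copies lie around 0, and psmf1 is the only call above 0.

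Sums over each role gave the following levels. Summed core beta TPM was 3688 and 3541 in sibling libraries against 3127 and 2986 in mutant libraries, and summed core alpha TPM was 2985 and 2783 against 2418 and 2368. Summed ATPase TPM was 1075 and 1052 in sibling libraries against 786 and 772 in mutant libraries, and summed non-ATPase TPM was 2055 and 1989 against 1587 and 1575. In each of these sums both mutant libraries lay below both siblings, at 0.73 times the sibling level for the ATPases, 0.78 for the non-ATPases, 0.83 for core alpha and 0.85 for core beta. The ratio of 19S to 20S summed TPM was 46.9 and 48.1% in sibling libraries against 42.8 and 43.8% in mutant libraries. It does not depend on library scaling, and its 19S sum leaves out adrm1 and shfm1. The ratio of ATPase to core beta summed TPM was 29.1 and 29.7% in sibling libraries against 25.1 and 25.9% in mutant libraries. The groups did not overlap in either ratio. The exact two-sided permutation test gave p = 0.333 for each, the smallest that 2 libraries against 2 can give, and 0.381 after Benjamini-Hochberg adjustment over 16 sums and ratios.

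**Figure D3:**
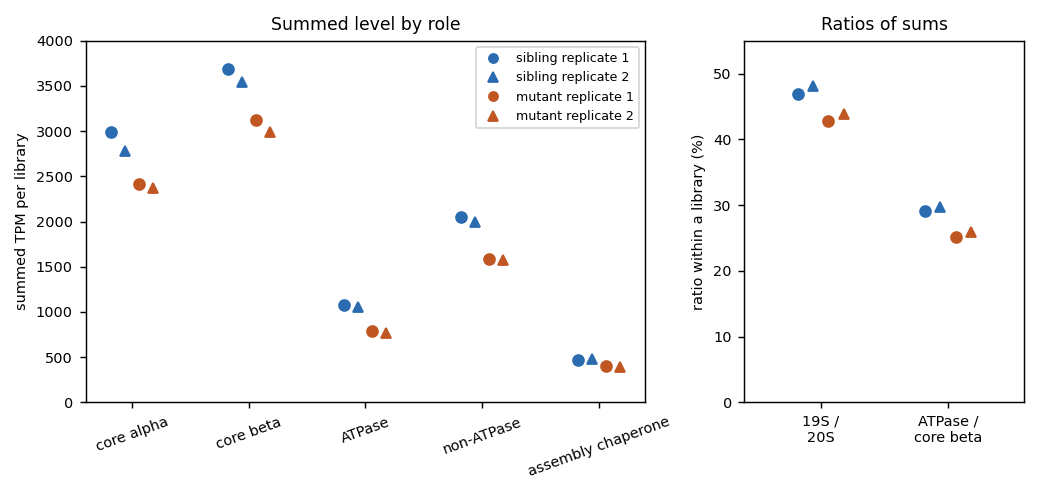
Summed TPM of 5 role groups in each library (left, axis from 0) and ratios of sums within each library in percent (right). The mutant points lie below the sibling points in every group shown, and the 19S to 20S ratio moves from 46.9 and 48.1% to 42.8 and 43.8%.

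Gene length moved with the differences among members, although not evenly over the range of lengths. The tested ATPase and non-ATPase rows had median recovered lengths of 1733 and 1512 bases, against 981 and 876 bases for core alpha and core beta. Among the 42 members of at least 20 TPM, the 11 shortest, up to 966 bases, had a median log2 difference of -0.22 and the 11 longest, over 1534.5 bases, one of -0.50. For all genes of at least 20 TPM in the same length ranges the medians were -0.14 over 668 genes and -0.32 over 2033 genes. In the ranges between, up to 1280.5 and up to 1534.5 bases, the member medians were alike at -0.29. Those of all genes there were -0.28 and -0.29. Spearman's rho between length and difference was -0.39 across the 42 members and -0.088 across the 3551 genes. These are descriptions across genes of the same 4 libraries, and the part of length in the 19S to 20S ratio was not tested.

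**Figure D4:**
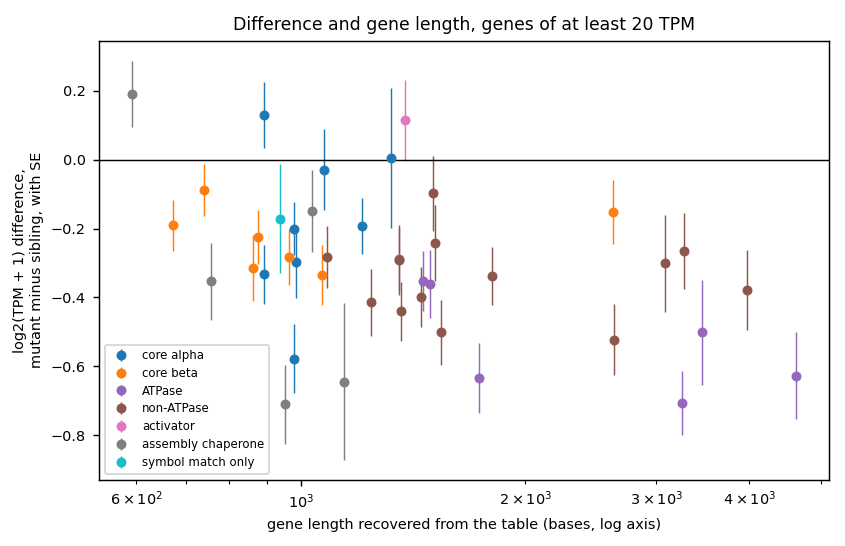
Log2(TPM + 1) difference with SE against the gene length recovered from the table (bases, log axis) for the 42 proteasome rows with a mean of at least 20 TPM, by role. The ATPase rows psmc4 and psmc6 combine lengths of 3251 and 4627 bases with differences of -0.71 and -0.63, while psmb5 at 2625 bases stands at -0.15.

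Assembly chaperones help to build the particle and are not part of it. Of 6 tested rows 1 fell and 5 did not pass, and their median log2 difference was -0.25. Both mutant libraries lay below both siblings in 3 of the 6 rows. The share was 44% over all genes tested and 61.3% at 20 TPM or more. Over all genes tested 18.6% fell, with a median of -0.14. Among genes of at least 20 TPM, a mean that all tested chaperone rows but psmd5 reached, 33.4% fell, with a median of -0.27. The chaperones did not exceed that background. The gene psmd9, whose mammalian protein holds the PSMC3 and PSMC6 ATPases during assembly of the base, stood at 64.5 and 60.2 TPM in sibling libraries against 36.3 and 39.1 TPM in mutant libraries. Its log2 difference of -0.71 (SE 0.11, limma adjusted p = 0.0109) was close to that of psmc4, and the groups did not overlap. Its ratio to the summed ATPases was 6.004 and 5.73% in sibling libraries against 4.62 and 5.07% in mutant libraries (exact permutation p = 0.333). The base chaperone gene psmd5 stood at 16.3 and 16.7 TPM in sibling libraries against 17.8 and 16.7 TPM in mutant libraries, with overlapping groups.

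The psmg genes encode chaperones of the alpha ring, acting as the pairs psmg1 with psmg2 and psmg3 with psmg4. The gene psmg1 stood at 83.9 and 124 TPM in sibling libraries against 75.9 and 55.4 TPM in mutant libraries, with a log2 difference of -0.64 and a wide SE of 0.23 (limma adjusted p = 0.0796). Its partner psmg2 stood at 85.5 and 75.8 TPM in sibling libraries against 76.8 and 68.6 TPM in mutant libraries, with overlapping groups. In the other pair, psmg3 stood at 113 and 106 TPM in sibling libraries against 79.7 and 91.4 TPM in mutant libraries (log2 difference -0.35, limma adjusted p = 0.0606). The most abundant chaperone row, psmg4, stood at 103 and 100.2 TPM in sibling libraries against 113 and 120 TPM in mutant libraries (log2 difference 0.19, limma adjusted p = 0.178). Neither passed, and their mutant libraries lay on opposite sides of the siblings. Without sibling replicate 1 psmg1 passed, and without sibling replicate 2 psmg3 passed. For psmg4 the difference was 0.40 and passed under quantile normalization (limma adjusted p = 0.0347).

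The single called rise was that of psmf1, which encodes PI31, a protein named for inhibiting the 20S core in vitro. It stood at 5.70 and 4.57 TPM in sibling libraries against 8.78 and 9.14 TPM in mutant libraries, a log2 difference of 0.70 (SE 0.18, limma adjusted p = 0.0346). Both mutant values exceeded both sibling values, on 138 and 116 recovered reads in the siblings, against 251 and 276 for mutants. The call was lost when low genes were not filtered and without either mutant library, where the difference stayed at 0.73 and 0.68.

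Activators open the core without ATP. No tested activator row passed. The PA28 subunit gene psme2 stood at 40.9 and 45.3 TPM in sibling libraries against 45.2 and 48.2 TPM in mutant libraries, with overlapping groups (log2 difference 0.11, limma adjusted p = 0.492). Its partner psme1 lay at 0.0222 to 0.105 TPM in the 4 libraries, on 1 to 4 recovered reads each, and psme3 was listed at 0 in both siblings and at 1 recovered read in each mutant library. Of the PA200 copies, psme4b stood at 2.79 and 3.11 TPM in sibling libraries against 2.40 and 2.11 TPM in mutant libraries, and psme4a at 0.702 and 0.940 TPM against 1.61 and 1.40 TPM. The copies thus pointed in opposite directions, neither passed (limma adjusted p = 0.328 and 0.172), and their sum was 3.49 and 4.05 TPM in sibling libraries against 4.00 and 3.51 TPM in mutant libraries. The share of psme4a in that sum was 20.1 and 23.2% in sibling libraries against 40.1 and 39.99% in mutant libraries.

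Immunoproteasome transcripts were scarce in all libraries. The gene psmb8a, whose product replaces that of psmb5, stood at 7.63 and 6.33 TPM in sibling libraries against 3.81 and 5.17 TPM in mutant libraries, with 95 to 161 recovered reads. Its log2 difference of -0.55 (SE 0.21, limma adjusted p = 0.0997) did not pass, although the groups did not overlap, and passed without sibling replicate 2. The ratio of psmb8a to psmb5 was 6.66 and 5.61% in sibling libraries against 3.79 and 4.98% in mutant libraries (exact permutation p = 0.333). That of the psmb10 row to psmb7 went the other way, on few reads. It was 0.047 and 0.248% in sibling libraries against 0.394 and 0.573% in mutant libraries (exact permutation p = 0.333). For psmb12 to psmb6 the groups overlapped. The gene psmb9a, whose product replaces that of psmb6, was listed at 2.69 TPM in sibling replicate 2 and at 0 in the other 3 libraries, so no fold is given and it was not tested.

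The other beta rows were also low. The fish beta gene psmb12 stood at 6.94 and 3.34 TPM in sibling libraries against 4.31 and 4.45 TPM in mutant libraries, and the psmb10 row at 0.327 and 1.66 TPM against 2.26 and 2.93 TPM. Neither passed (limma adjusted p = 0.781 and 0.106). Without sibling replicate 2 the log2 differences were -0.56 for psmb12 and 1.43 for psmb10, and without sibling replicate 1 they were 0.31 and 0.43. The mutant libraries lay inside the sibling range for psmb12 and above it for psmb10. The psmb10 row rested on 6 and 32 recovered reads in the siblings, against 49 and 67 for mutants, and its difference ranged from 0.35 to 1.80 over the alternatives. The thymus-type genes psmb11a and psmb11b were listed at 0 in both siblings. They reached at most 0.0425 and 0.417 TPM in a mutant library, so neither was tested. All 6 rows together summed to 14.9 and 14.0 TPM in sibling libraries against 10.5 and 12.96 TPM in mutant libraries.

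**Figure D5:**
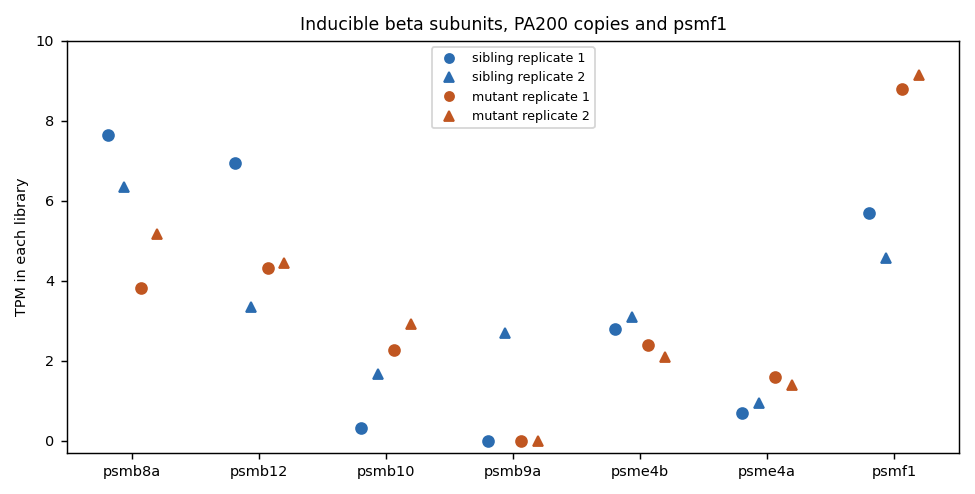
TPM in each library for the low immunoproteasome and other beta genes, the PA200 copies psme4b and psme4a, and psmf1 (linear axis). Values of psmf1 are 4.57 and 5.70 TPM in sibling libraries against 8.78 and 9.14 TPM in mutant libraries, while psmb9a is above 0 in sibling replicate 2 only.

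Other genes of the pathway were counted in lists. Over all genes tested 18.6% fell and 9.91% rose, and at 20 TPM or more 33.4% fell. Without mutant replicate 1 and without mutant replicate 2 every call named from these lists ended, where 11 and 4 genes of the table passed, and the differences were between 0.68 and 1.32 times their size with all libraries. The calls of ubb and ubc also ended without sibling replicate 2, and those of ubb and nsfl1c under median-of-ratios scaling. Of the falls named, those of calr, calr3b, pdia3, zfand5a and plaa held under quantile normalization and the others did not. Of 9 tested genes of the p97 unfoldase, which extracts ubiquitin-tagged proteins for the proteasome, and its cofactors, 7 fell and 0 rose, with a median log2 difference of -0.50. The p97 gene vcp stood at 141 and 132 TPM in sibling libraries against 100.1 and 92.5 TPM in mutant libraries (log2 difference -0.50, SE 0.10, limma adjusted p = 0.0183). Its ubiquitin-binding cofactor genes ufd1l, nploc4 and plaa fell by 0.63, 0.66 and 0.84 in log2 units, and nsfl1c and faf2 by 0.46 and 0.52. The cofactor gene ubxn4 stood at 12.8 and 17.9 TPM in sibling libraries against 28.3 and 19.6 TPM in mutant libraries and did not pass (limma adjusted p = 0.1001).

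Of 7 tested genes of the ubiquitin and conjugation list 4 fell. The ubiquitin activating enzyme gene uba1 stood at 134 and 149 TPM in sibling libraries against 104 and 97.5 TPM in mutant libraries (log2 difference -0.49, limma adjusted p = 0.0215). The conjugating enzyme genes ube2d3 and ube2l3b fell by 0.63 and 0.50 in log2 units, and ubb, a polyubiquitin gene, fell by 0.39. In contrast, the polyubiquitin gene ubc rose by 0.29.

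Of 13 tested partners of the particle 3 fell and 10 did not pass. They were zfand5a, whose mammalian relative activates the proteasome, from 520 and 512 TPM to 283 and 301 TPM (log2 difference -0.82, limma adjusted p = 0.00469), the shuttle gene ubqln4, which fell by 0.62 in log2 units, and the deubiquitinase gene uchl5, which fell by 0.53. The maturation factor gene pomp stood at 538 and 528 TPM in sibling libraries against 543 and 508 TPM in mutant libraries, with overlapping groups. The ubiquitin receptor gene adrm1 stood at 14.0 and 15.2 TPM in sibling libraries against 18.1 and 16.3 TPM in mutant libraries without passing. The lid subunit gene shfm1 stood at 159 and 148 TPM in sibling libraries against 141 and 169 TPM in mutant libraries, with overlapping groups. The genes of nfe2l1, the factor that raises proteasome transcription when activity falls in mammals, were low, with nfe2l1a at 0.709 to 1.33 TPM and nfe2l1b at 0.413 to 0.628 TPM. Of 5 tested genes of that control list 1 fell, ngly1, which encodes the deglycosylase that activates NFE2L1 in mammals, by 0.61 on the log2 scale.

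Of 12 tested class I presentation genes 3 fell and 1 rose. The falls were those of the endoplasmic reticulum chaperone genes calr, calr3b and pdia3, by 1.42, 0.94 and 0.87 on the log2 scale. The class I gene mhc1zba stood at 100.2 and 76.8 TPM in sibling libraries against 138 and 159 TPM in mutant libraries (log2 difference 0.75, limma adjusted p = 0.0196), and its reads may be shared with related class I genes. The light chain genes b2m and b2ml overlapped between groups. Of 7 tested interferon factors and targets 1 fell and 1 rose. The signal transducer gene stat1a fell by 0.52, and the macrophage factor gene irf8 rose by 1.71 on the log2 scale, beside the higher macrophage markers given above.

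Across the table, the profile over 4 libraries closest to the mean ATPase profile was that of rps6ka1, at a Euclidean distance of 0.0129 on centred log2 values, followed by agpat5, rpn2, ndrg3a and rpa2 at up to 0.0238. The search covered 3509 genes averaging at least 20 TPM outside the members. The gene rpn2, which encodes an oligosaccharyltransferase subunit and not a proteasome subunit, stood at 160.4 and 157 TPM in sibling libraries against 110.4 and 112 TPM in mutant libraries.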

How the data were processed

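The authors deposited 1 table of TPM values per gene and library, with a column for each of the 4 samples. The submitters' processing notes name the tools STAR, FastQC, DESeq2 and featureCounts and the build GRCz11. Tool versions and the annotation are not stated there. TPM is relative, so a rise of abundant genes lowers the rest. Whole reads were recovered from ratios between libraries. For the 23927 rows detected in at least 2 libraries the reads came out whole to within 0.0001, with a wider margin for large counts. Gene lengths were then inferred from these reads under a looser tolerance. A factor shared by the reads and the length of a gene stays hidden, so both can be too low. On simulated data 94.8% of rows gave back the exact reads. Rows above 0 in 1 library, 2178 of them, are missing from the totals. Without molecular identifiers, amplified reads do not count molecules. Genes averaging 1 TPM or more were tested with limma 3.58.1 in R 4.3.3 on log2(TPM + 1). The fit used a mean-variance trend and Benjamini-Hochberg adjustment over 12073 genes. Adding 1 to each TPM understates the change of low genes. The scripts were tested on simulated data. Sums and ratios used an exact two-sided permutation test.

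The members, roles, lists and rules were chosen with earlier results of these data known. Values are given for called members, immunoproteasome and other beta, activator, chaperone and inhibitor rows, the extremes of each role, up to 6 called genes per list and the 5 genes closest to the mean ATPase profile. Further genes named were chosen after their values were seen. Of the 56 symbols 55 matched the RefSeq table of GRCz12tu, used for names only. Alternatives covered pseudocount, filter, scaling, trend, libraries left out, a replicate block and, added after the data were seen, voom on recovered reads. One result of the ubiquitin and conjugation list is not reported here.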

Additional observations from a re-analysis of the deposited data

How the results depend on the processing

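Over 12 alternatives other than leaving out a mutant library, the calls of psmc3, psmc4 and psmd9 held in each. As 1 library was left out, members called lower ranged from 0 to 21 and higher from 0 to 2, and all genes called lower from 4 to 3219 and higher from 0 to 2178. The number of members called lower was 16. It was 8 with no filter on low values and under median-of-ratios scaling, 4 under quantile normalization and with no trend, and 10 with voom on recovered reads. Members called higher numbered 1, but 0 with no filter (8525 genes at an unadjusted p under 0.05 in limma) and with a mean of at least 20 TPM, which removes psmf1, and 2 under quantile normalization. The median log2 difference of members was -0.19 under median-of-ratios scaling and -0.11 under quantile normalization, and from -0.33 to -0.24 with 1 library fewer. Over all genes, 1124 were lower with no filter, 1316 under quantile normalization and 1439 with at least 20 TPM, and 778 and 405 were higher with at least 5 and 20 TPM. None of the members whose difference reversed was called there. Under median-of-ratios scaling these were psma6a (0.071), psmb2 (0.012) and psmd4b (0.00082). Under quantile normalization they were psma4 (0.0055), psma6a (0.16), psmb2 (0.075), psmb5 (0.084), psmc3ip (0.042), psmd4b (0.15) and psmg2 (0.080), and with voom psma6a (0.048). With 1 library fewer the difference ranged from -0.56 to 0.31 for psmb12, from -0.35 to 0.0074 for psmc3ip, from -0.14 to 0.083 for psma6a and from -0.26 to 0.27 for psma6l. The ratio of psmb12 to psmb6 lay between -0.49 and 0.60 on the log2 scale with 1 library fewer. No other sum or ratio reversed under median-of-ratios scaling or with 1 library fewer, the alternatives run for sums. This says little, since that scaling leaves ratios within a library unchanged. Leaving out 1 library also cannot reverse a difference between groups that do not overlap. The labels give same-numbered samples no link beyond the number. Their correlation of deviations was -0.046 over 12073 genes, which cannot show whether they shared a clutch. With the replicate block 9 members were lower and 0 higher, psmf1 having an adjusted p of 0.060 in limma. The cause of these shifts was not tested, except that fewer genes or libraries enter some fits.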
